A study of Mus musculus with 30 samples.

Results

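The genes described here rose and then fell again while doxycycline was withheld from a mouse embryonic stem cell clone. They were selected on measured values. A gene was kept when its mean log2 signal on day 1 or day 3 of withdrawal was at least 0.6 above day 0 and at least 0.6 above day 5, and its mean over the 30 arrays was at least 6. Of 19935 genes named by 1 symbol, 16593 reached that minimum and 38 met the rule. Among them, 21 were highest on day 1 and 17 on day 3. The day 1 genes were Lpar4, Lefty1, Car3, Map7d3, Pdgfc, Apela, Lef1, Ebf1, Fgf15, Gm5662, Dpp4, Skil, Epp13, Vrtn, Etv1, H2ac1, Dusp27, Hes6, Elmo1, Coch and Krt42. The day 3 genes were Mir363, Akr1c18, Mir302d, Fgf5, Ppp4r4, Irf1, Pipox, Mir106a, Trim67, Kctd12b, Otx2, Mir377, Has2, Slc23a1, Tek, Tdrd12 and Ddx60.

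Nanog is a homeobox factor of naive pluripotency, the state of the preimplantation epiblast. Cells that leave this state pass through a formative phase, in which genes such as Otx2, Fgf5 and the de novo DNA methyltransferases are switched on while Pou5f1 and Sox2 remain expressed. Formative expression is temporary, and it gives way to primed pluripotency or to lineage programmes. FGF signals through ERK and Nodal signals through Smad proteins are both known to act during this transition, and Lefty proteins restrain Nodal from outside the cell.

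The cells were embryonic stem cells of the AINV15_Nanog_Rescue Clone, called NgR, 1 clone derived from cells that express the doxycycline-dependent activator rtTA. They were kept on primary mouse embryonic fibroblasts. Day 0 cells grew with 1 ug/ml doxycycline and expressed Nanog. Withdrawal groups were harvested after 1, 3 and 5 days without the drug. For each of these days, a pulse group received doxycycline again for 12 h before harvest, and a control group harvested with it did not. The labels do not spell out whether these 12 h followed the named day. Each of the 10 groups held 3 arrays. Whether the 3 replicates came from separate cultures is not stated in the labels, so p-values measure the spread between these arrays, which may be technical. How the clone's own Nanog was reduced is not given in the labels used here.

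RNA was measured on Affymetrix Mouse Gene 1.0 ST arrays, and values are log2 signals, each summarising the probes of 1 transcription unit (a cluster). Pou5f1, which defines pluripotent cells, had means of 12.35 on day 0 and 12.19, 11.61 and 11.06 on days 1, 3 and 5 of withdrawal, and Sox2, another such gene, stood at 12.11, 12.12, 12.14 and 11.62. The mean of 30 fibroblast genes lay between 7.76 and 8.09, with Lum between 4.28 and 5.01, while Col1a2 had means of 8.17, 8.26, 8.62 and 9.17 on days 0, 1, 3 and 5. The part of these shifts in the falls to day 5 was not tested. In such bulk samples, fewer cells of a type and less RNA per cell cannot be told apart. The interquartile range of signal was 2.39 to 2.71 on 26 arrays and larger on 4: replicate 3 of the day 1 control, replicate 2 of the day 3 control, and replicates 2 and 3 of the day 5 control. Counts of the 38 genes that rest on these 4 wide arrays are therefore given with and without them, and counts of gene lists where they changed. Without them 2, 2 and 1 control arrays were left on days 1, 3 and 5, and the lone day 5 array was assumed to vary like the other groups. Nanog itself was higher after every pulse than in its control, by 0.79 ± 0.08 (SE, adjusted p = 3.33e-06) on day 1, 0.80 ± 0.08 (adjusted p = 4.61e-06) on day 3 and 0.78 ± 0.08 (adjusted p = 4.26e-06) on day 5.

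Of the 38 genes, 4 encode microRNAs, short RNAs that pair with target messages through bases 2 to 8, the seed. Their mature sequences are shown to compare their seeds, which are in capitals, 5′ to 3′, from RefSeq on GRCm38.p6. The 3p arm from Mir302d, the 5p arm from Mir106a, the 3p arm from Mir363 and the 3p arm from Mir377 are at chr3:127545665-127545687 (plus strand), chrX:52742541-52742563 (minus strand), chrX:52741697-52741718 (minus strand) and chr12:109740553-109740574 (plus strand).
mmu-miR-302d-3p: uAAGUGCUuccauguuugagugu
mmu-miR-106a-5p: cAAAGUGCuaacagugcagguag
mmu-miR-363-3p: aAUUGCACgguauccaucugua
mmu-miR-377-3p: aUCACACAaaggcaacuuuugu
No 2 of these 4 seeds were the same. Among neighbouring microRNAs, the seed of miR-302d-3p was also that of miR-302b-3p from the same cluster on chromosome 3, which is not printed here. The seed of miR-106a-5p was also that of miR-20b-5p from the same cluster on chromosome X. The seed of miR-363-3p was also that of miR-92a-3p beside it and of miR-367-3p, which lies beside miR-302d on chromosome 3.
mmu-miR-20b-5p: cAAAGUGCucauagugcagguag
mmu-miR-92a-3p: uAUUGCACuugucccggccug
mmu-miR-367-3p: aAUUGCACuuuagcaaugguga
The Mir363 and Mir106a hairpins start 810 bases apart. Probe clusters named for microRNAs may match related copies, so their values are uncertain. Cross-matching, and whether they report precursor or mature RNA, was not tested.

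Across the withdrawal arrays that chose them, the 38 genes rose by 0.61 to 2.10 on the log2 scale, with a median of 0.92, and fell from the peak to day 5 by 0.61 to 2.40, with a median of 0.87. Rises were largest for Mir363 (2.10), Mir106a (2.04), Otx2 (1.98) and Mir377 (1.98), and falls were largest for Lefty1 (2.40), Krt42 (2.02), Fgf15 (1.89) and Map7d3 (1.68). On day 5, 20 genes lay below their day 0 mean and 18 above it. Lefty1, Map7d3, Fgf15, Dusp27 and Krt42 ended at least 0.6 below day 0, and Mir363, Mir106a, Otx2, Mir377, Tdrd12 and Ddx60 at least 0.6 above it. Some genes thus ended below where they began, and others had not returned by day 5.

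**Figure D1:**
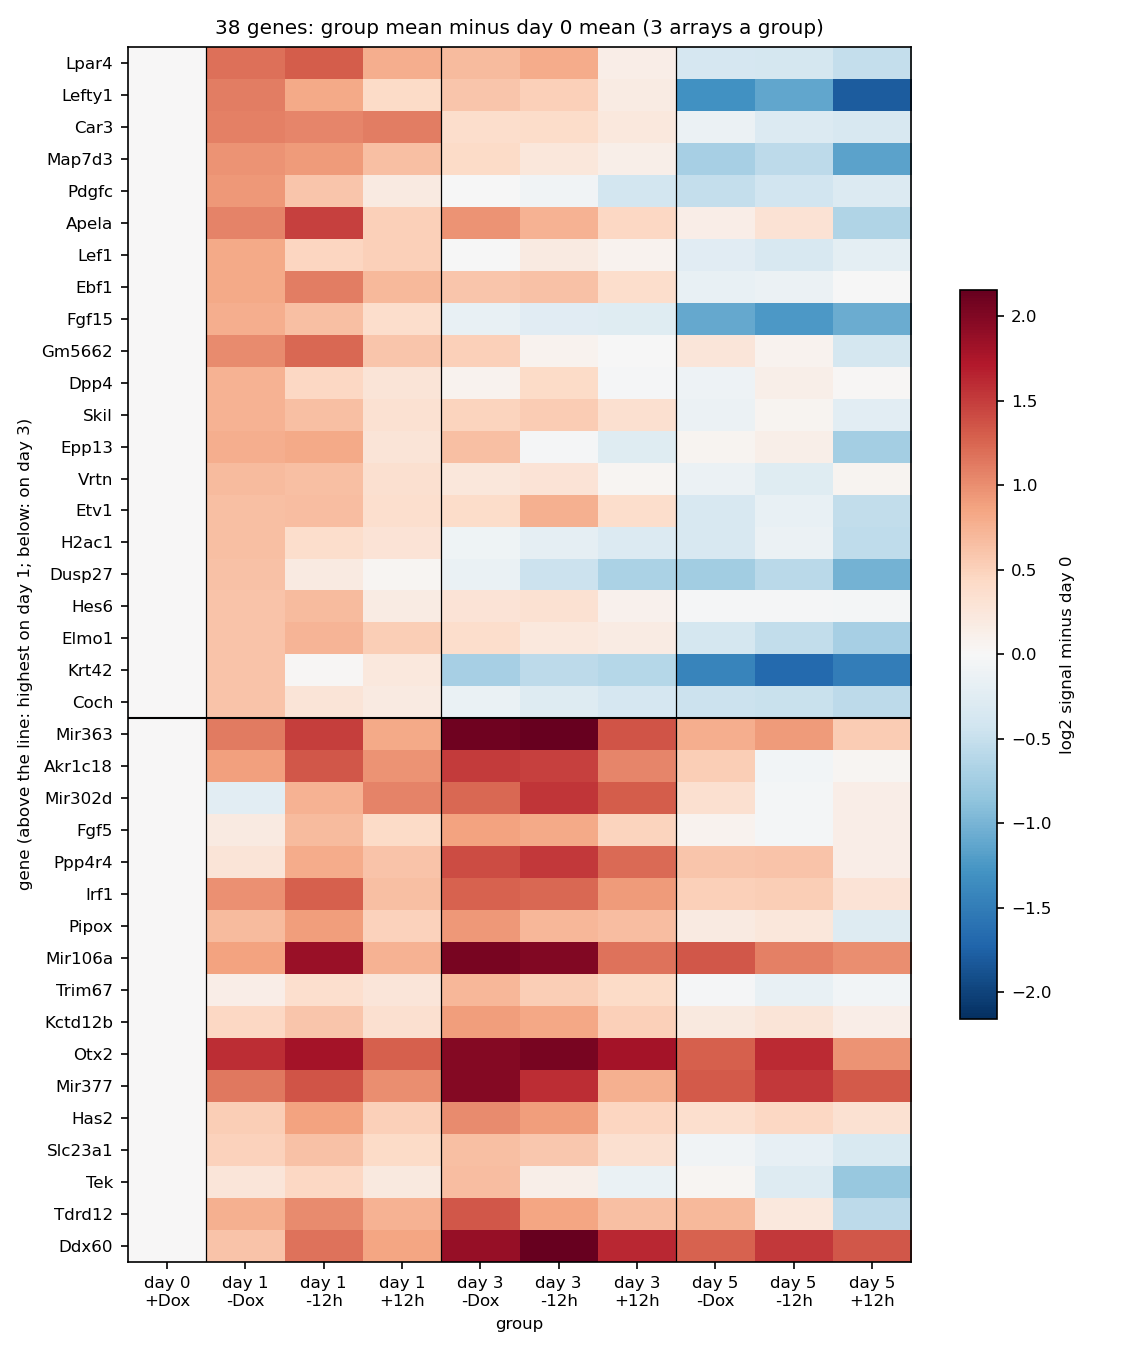
Mean log2 signal of each of the 38 genes (rows) in the 10 groups of 3 arrays (columns), shown as the difference from the gene's own day 0 mean. Day 1 and day 3 genes are separated, and the day 5 columns show Otx2, Mir106a and Mir377 still above day 0 and Lefty1, Krt42 and Fgf15 below it.

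Several genes lay close to the limits of the rule. Just inside were Krt42 and Coch, with rises of 0.608 each, Elmo1 at 0.615, and Ddx60, Tdrd12 and Tek, with falls of 0.607, 0.635 and 0.638. Just outside were Dnmt3a, Igfbp3 and Tmem154, with rises of 0.597, 0.581 and 0.571, and Dusp4, Abcc4 and Pdk1, with falls of 0.565, 0.563 and 0.559. By mean signal, Mir302d (6.12), Mir377 (6.27) and Akr1c18 (6.34) were inside, and Cdh9 (5.85), Mir302c (5.71) and Mir302a (5.20) outside. In all, 653 genes missed the rule by the rise alone, 751 by the fall alone and 6 by the mean alone.

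The rise and fall of the rule were taken without the 18 control and pulse arrays, which entered it only through the mean over 30 arrays and the choice of a gene's cluster, and the tests below use these 18. With that mean and choice made on the other 12 arrays alone, 37 of the 38 genes and no others met the rule, and Mir302d did not. A cluster was called when its adjusted p was under 0.05 in a fit over 23385 clusters. After the day 1 pulse, 12 of the 38 genes were lower than in the timed control and 0 were higher in limma (1 at an unadjusted p under 0.05), against 3.2% of all clusters lower and 0.547% higher. On day 3, Lpar4 was lower and no other gene of the 38 was called, against 0.0342% of all clusters called lower and 0.00428% higher. At an unadjusted p under 0.05, 24 of the 38 were lower and 0 higher. The share of all clusters at that limit was not counted. After the day 5 pulse, 12 were lower and 1, Vrtn, was higher, against 7.1% and 5.13% of all clusters. Without regard to calls, the pulse change was below 0 in 34, 38 and 28 of the 38 genes on days 1, 3 and 5. Medians were -0.31, -0.24 and -0.16 beside 0.01, -0.01 and 0.02 over all clusters. Without the 4 wide arrays the change was below 0 in 34, 35 and 24, the last against 1 control array. The share of all clusters below 0 was not counted.

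The day 1 calls were Lpar4, Pdgfc, Apela, Ebf1, Gm5662, Skil, Epp13, Hes6, Irf1, Pipox, Mir106a and Otx2. The day 5 calls lower were Lefty1, Map7d3, Apela, Skil, Epp13, Etv1, H2ac1, Dusp27, Pipox, Otx2, Tek and Tdrd12. Apela, Skil, Epp13, Pipox and Otx2 stood in both, 5 of 12 in each. Day 1 and day 5 pulse comparisons share no arrays, but 1 fit gave both the same estimate of the spread per cluster. The share of all clusters called lower on both days was not counted. Counts depended on single arrays and on the wide ones. The day 1 count was 6 without replicate 2 of the day 1 pulse, where 1.03% of all clusters were lower. It kept Pdgfc, Apela, Epp13, Hes6, Irf1 and Mir106a. Without the 4 wide arrays the day 1 count was 9, and Krt42 was called higher at 0.33. In that fit 4.04% of all clusters were lower and 1.97% higher on day 1. The day 5 count fell from 12 to 2 without the wide arrays, with Apela at -0.81 (adjusted p = 0.0385) and Epp13 at -0.82 (adjusted p = 0.00342) still called, while 0.107% of all clusters were lower and 0.128% higher. That fit set the pulse arrays against 1 control array. The genes that lost the call stayed below 0, with Otx2 at -0.50, Pipox at -0.42, Dusp27 at -0.39 and Map7d3 at -0.25.

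**Figure D2:**
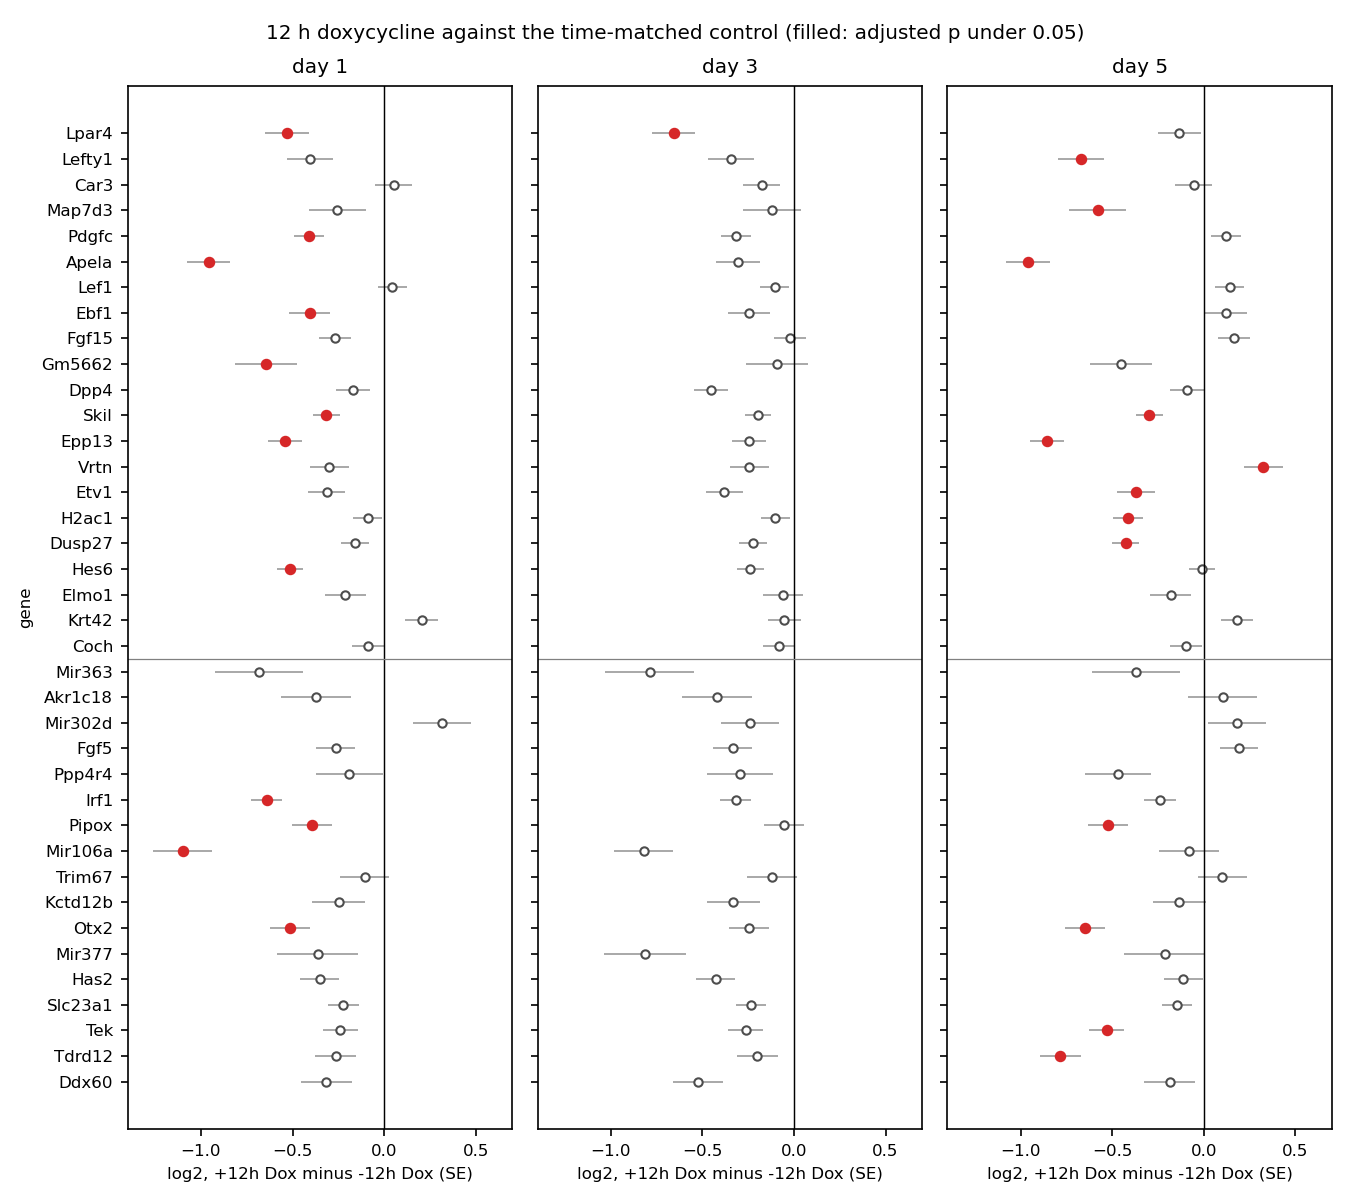
Pulse minus control change in log2 signal (horizontal axes) of each of the 38 genes (rows) on days 1, 3 and 5, with standard errors of the limma fit and called changes filled. Most points lie left of 0, with 34, 38 and 28 of 38 below it on the 3 days when the wide arrays are kept.

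Of the secreted signals and their regulators, Lefty1, the extracellular Nodal antagonist, had the largest fall. Its log2 signal was 10.16, 10.26 and 10.35 on day 0, 11.33, 11.36 and 11.36 on day 1, 10.82, 10.81 and 10.90 on day 3 and 9.04, 8.85 and 8.94 on day 5. Control arrays read 11.27, 10.90 and 11.05 on day 1, 10.61, 10.93 and 10.77 on day 3 and 8.99, 9.30 and 9.12 on day 5, and pulse arrays 10.63, 10.53 and 10.85, 10.39, 10.39 and 10.51 and 8.88, 8.18 and 8.34. All 9 pulse arrays lay below all control arrays of their day. The pulse change was -0.40 ± 0.13 (adjusted p = 0.0719) on day 1, -0.34 ± 0.13 (adjusted p = 0.224) on day 3 and -0.67 ± 0.13 (SE, adjusted p = 0.00196) on day 5, and the last alone was called. From day 1 to day 5 the controls changed by -1.94 ± 0.13 (SE, adjusted p = 3.84e-12) and the pulsed cells by -2.20 ± 0.13 (SE, adjusted p = 2.4e-13).

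Skil, which encodes SnoN, a repressor that binds Smad proteins, moved over a smaller range. It rose from 9.85 ± 0.05 (SD, n = 3) on day 0 to 10.60 ± 0.04 on day 1 and was 9.72 ± 0.03 on day 5. Control arrays read 10.50, 10.46 and 10.53 on day 1 against 10.14, 10.15 and 10.26 after the pulse, and 9.76, 10.06 and 9.93 on day 5 against 9.76, 9.60 and 9.51. The groups were apart on day 1, and on day 5 the highest pulse array lay just under the lowest control array. Pulse changes were -0.31 ± 0.07 (SE, adjusted p = 0.0115) on day 1, -0.19 ± 0.07 (adjusted p = 0.224) on day 3 and -0.30 ± 0.07 (SE, adjusted p = 0.0113) on day 5. Without the wide arrays the day 5 change was -0.14 (adjusted p = 0.711), and with the interquartile range as a covariate -0.17 (adjusted p = 0.139).

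Of the 28 other measured genes of the Nodal and TGF-beta list, 0 were called in limma after the day 3 and day 5 pulses (6 and 4 at an unadjusted p under 0.05, either direction). Over all clusters, 0.0342% were lower and 0.00428% higher on day 3, and 7.1% and 5.13% on day 5. After the day 1 pulse, 4 of the 28 were lower and 1 higher, against 3.2% and 0.547% of all clusters. Nodal, the ligand, changed by -0.35 ± 0.09 (adjusted p = 0.0203), Smad3, its transducer, by -0.41 ± 0.07 (adjusted p = 0.00187), Acvr2b, a receptor, by -0.34 ± 0.08 (adjusted p = 0.0109), and Bmp4, a ligand of another branch, by 0.47 ± 0.09 (adjusted p = 0.00221). From day 1 to day 5 in the controls, 8 fell and 7 rose (8 and 3 without the wide arrays), where 15.8% of all clusters fell and 16.4% rose, with a median of -0.08 beside -0.06 over all clusters. Lefty2 changed by -1.80 ± 0.14 (adjusted p = 6.29e-11) and Nodal by -0.93 ± 0.09 (adjusted p = 3.36e-09), while Furin, a protease that processes such ligands, rose by 0.56 ± 0.08 (adjusted p = 6.6e-06).

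Fgf5 and Fgf15 encode FGF ligands, and they peaked on different days. Fgf5, a marker of formative and primed epiblast, read 7.27, 7.36 and 7.53 on day 0, 7.50, 7.59 and 7.63 on day 1, 8.46, 8.25 and 8.06 on day 3 and 7.34, 7.36 and 7.66 on day 5. Its controls were 7.98, 8.08 and 8.13, 8.05, 8.44 and 8.11 and 7.44, 7.31 and 7.27 on days 1, 3 and 5, and its pulse arrays 7.84, 7.83 and 7.73, 7.70, 7.99 and 7.91 and 7.52, 7.50 and 7.58. Pulse arrays lay below the controls on days 1 and 3 and above them on day 5, and no change was called (-0.26 ± 0.11, -0.33 ± 0.11 and 0.19 ± 0.11, adjusted p = 0.185, 0.18 and 0.198). The controls of day 1 were already near those of day 3, with a step of 0.14 ± 0.11 (adjusted p = 0.51). The step from day 3 to day 5 was -0.86 ± 0.11 (SE, adjusted p = 1.44e-06) in the controls and -0.33 ± 0.11 (SE, adjusted p = 0.0279) in the pulsed cells.

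Fgf15 rose less and fell further. It was 8.89 ± 0.04 (SD, n = 3) on day 0, 9.68 ± 0.09 on day 1, 8.73 ± 0.09 on day 3 and 7.80 ± 0.10 on day 5. Controls read 9.55, 9.52 and 9.56 on day 1 and pulse arrays 9.33, 9.13 and 9.36, which did not overlap, yet the change of -0.27 ± 0.09 was not called (adjusted p = 0.0908). Days 3 and 5 gave -0.02 ± 0.09 and 0.17 ± 0.09. Controls changed from day 1 to day 5 by -1.88 ± 0.09 (SE, adjusted p = 5.18e-15), among the largest falls of the 38, and pulsed cells by -1.45 ± 0.09 (SE, adjusted p = 7.86e-13).

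Etv1, an ETS factor whose relatives Etv4 and Etv5 are targets of FGF signalling, was 8.30 ± 0.10 on day 0 and 8.96 ± 0.08 on day 1. Its pulse changes on the 3 days were -0.31 ± 0.10, -0.38 ± 0.10 and -0.37 ± 0.10, and only the day 5 change was called (adjusted p = 0.0914, 0.148 and 0.0221). Without the wide arrays the day 5 change was -0.15 (adjusted p = 0.786), a comparison with 1 control array, and with each array's interquartile range as a covariate -0.14 (adjusted p = 0.345). A further probe cluster for Etv1 rose by 0.51 and fell by 0.87 over the withdrawal groups.

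In the FGF and ERK list, 5 of the 25 other genes were lower and 2 higher after the day 1 pulse, with a median of -0.11. Over all clusters, 3.2% were lower and 0.547% higher. The ERK feedback inhibitor Spry4 changed by -0.55 ± 0.11 (adjusted p = 0.00372), the ERK phosphatase Dusp4 by -0.52 ± 0.11 (adjusted p = 0.00675), the receptor Fgfr2 by -0.53 ± 0.07 (adjusted p = 4.93e-05) and the G1 cyclin Ccnd1 by 0.28 ± 0.08 (adjusted p = 0.0455). On day 3 Fgfr2 alone was called, at -0.37 ± 0.07 (adjusted p = 0.0281), where 0.0342% of all clusters were lower. On day 5, 0 were lower in limma (1 at an unadjusted p under 0.05) and 3 were higher, against 7.1% and 5.13% of all clusters. The 3 were Myc at 0.44 ± 0.13 (adjusted p = 0.0289), Ccnd1 at 0.43 ± 0.08 (adjusted p = 0.00169) and Spry4 at 0.37 ± 0.11 (adjusted p = 0.0255). From day 1 to day 5 in the controls, 15 fell and 4 rose, against 15.8% and 16.4% of all clusters, with Spry4 at -2.22 ± 0.11 (adjusted p = 9.06e-15) and Spry2 at -1.55 ± 0.10 (adjusted p = 3.19e-12). When the wide arrays were left out, 6 were lower and 4 higher on day 1, 0 were called in limma on day 3, 1 was higher on day 5, and 15 fell and 3 rose.

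Otx2, the homeobox factor that marks the formative state, rose early and was still above day 0 on day 5. It read 8.14, 8.36 and 8.01 on day 0, 9.79, 9.76 and 9.72 on day 1, 10.12, 10.14 and 10.19 on day 3 and 9.57, 9.48 and 9.34 on day 5, so that all withdrawal arrays lay above day 0. Control arrays were 9.94, 9.79 and 10.19, 10.11, 10.26 and 10.27 and 9.63, 9.93 and 9.79 on days 1, 3 and 5, and pulse arrays 9.41, 9.30 and 9.67, 9.97, 9.94 and 9.99 and 9.35, 8.98 and 9.08. Pulse and control arrays were apart on each day. The pulse change was -0.51 ± 0.11 (SE, adjusted p = 0.00706) on day 1, -0.24 ± 0.11 (adjusted p = 0.299) on day 3 and -0.65 ± 0.11 (SE, adjusted p = 0.000756) on day 5. The pulse arrays of all 3 days remained above those of day 0. The fall from day 3 to day 5 was -0.43 ± 0.11 (SE, adjusted p = 0.00655) in the controls and -0.83 ± 0.11 (SE, adjusted p = 2.69e-06) in the pulsed cells.

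**Figure D3:**
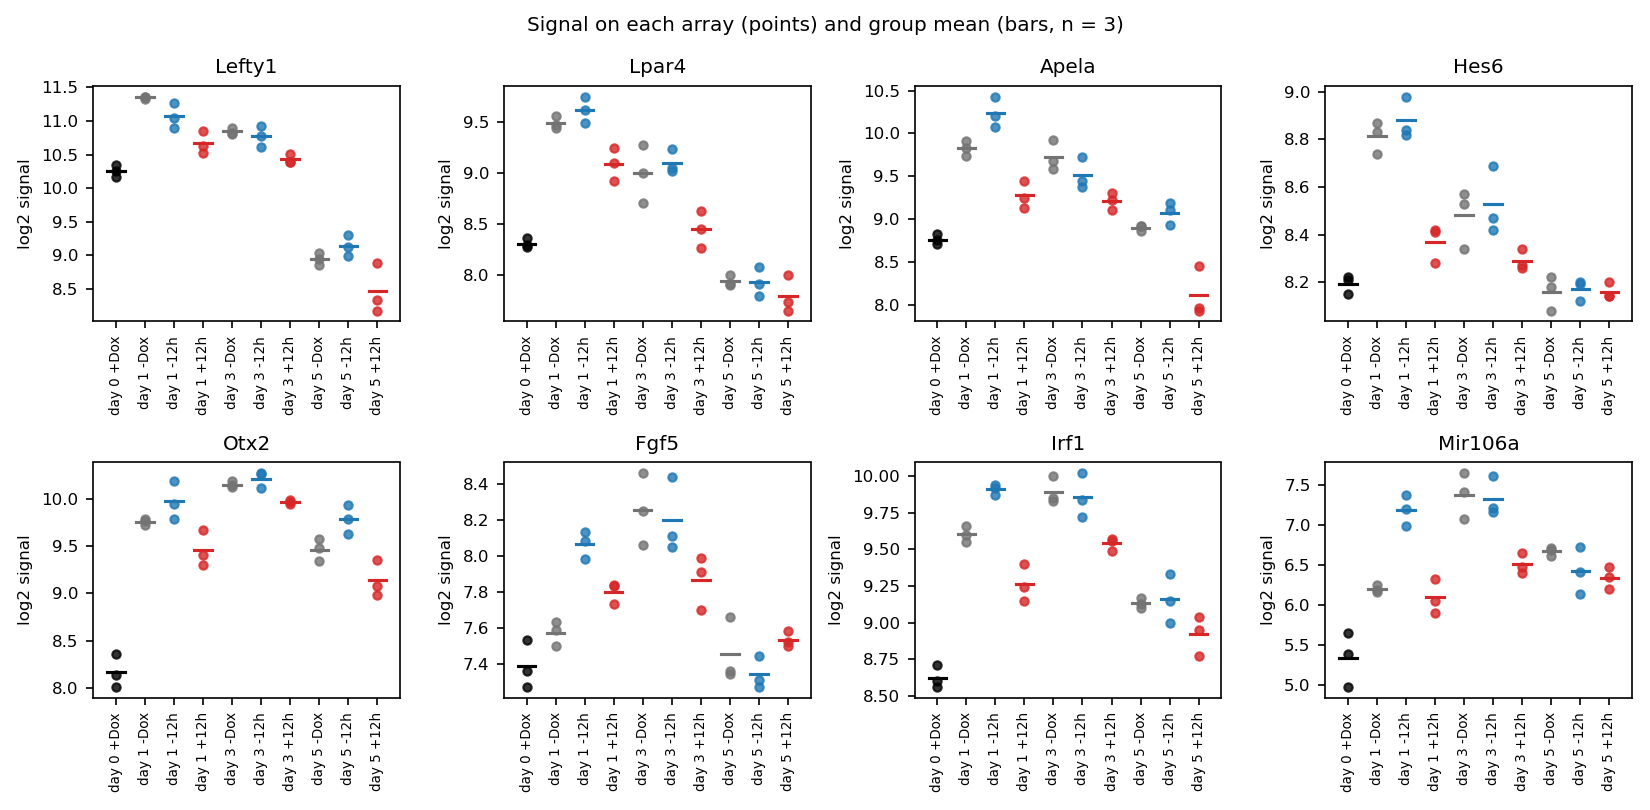
Log2 signal of single arrays (points) and group means (bars) of Lefty1, Lpar4, Apela, Hes6, Otx2, Fgf5, Irf1 and Mir106a on day 0 (black) and in the withdrawal (grey), control (blue) and pulse (red) groups, on axes that do not start at 0. Lefty1, Apela and Otx2 pulse arrays lie below the control arrays of the same day on days 1, 3 and 5.

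Lef1 is the nuclear partner of beta-catenin in Wnt signalling. It was 7.60 ± 0.08 (SD, n = 3) on day 0, 8.42 ± 0.10 on day 1, 7.59 ± 0.17 on day 3 and 7.37 ± 0.06 on day 5, so that it had returned by day 3. The day 1 controls read 8.12, 8.02 and 8.06 and the pulse arrays 8.11, 8.05 and 8.18, with a change of 0.04 ± 0.08 (adjusted p = 0.836). Changes on days 3 and 5 were -0.10 ± 0.08 and 0.14 ± 0.08, neither called. Of the 31 other Wnt genes, 2 were lower and 1 higher after the day 1 pulse, 1 lower after the day 3 pulse, and 2 lower and 2 higher after the day 5 pulse. Over all clusters, 3.2% were lower and 0.547% higher on day 1, 0.0342% lower on day 3, and 7.1% lower and 5.13% higher on day 5. The day 5 Wnt counts lay near these shares. The receptor Fzd7 changed by -0.63 ± 0.09 (adjusted p = 8.94e-05) on day 1, the ligand Wnt8a by -0.57 ± 0.10 (adjusted p = 0.0281) on day 3, and the secreted antagonist Sfrp2 by -0.39 ± 0.10 (adjusted p = 0.0167) and Porcn, which lipidates Wnt ligands, by 0.30 ± 0.06 (adjusted p = 0.00263) on day 5. In the controls from day 1 to day 5, 11 of them fell and 7 rose, against 15.8% and 16.4% of all clusters. Without the wide arrays these were 6 and 4, and in limma 0 were called after the day 3 and day 5 pulses.

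In the main fit, Hes6, a helix-loop-helix inhibitor of Hes1, was the 1 gene of the 38 with a called difference between pulses of different days. It was 8.19 ± 0.04 on day 0, 8.81 ± 0.07 on day 1 and 8.16 ± 0.07 on day 5. Day 1 controls read 8.82, 8.98 and 8.84 and day 1 pulse arrays 8.42, 8.41 and 8.28, near day 0, while day 5 controls read 8.20, 8.19 and 8.12 and day 5 pulse arrays 8.20, 8.14 and 8.14. The change was -0.51 ± 0.07 (SE, adjusted p = 0.00015) on day 1, -0.24 ± 0.07 (adjusted p = 0.171) on day 3 and -0.01 ± 0.07 (adjusted p = 0.94) on day 5. The difference between the day 5 and day 1 changes was 0.50 ± 0.10 (SE, adjusted p = 0.0428), where 0.111% of clusters had such a difference called in either direction. It was not called without the 4 wide arrays (adjusted p = 0.071) or in 15 of 18 fits that each left out 1 array (adjusted p from 0.0206 to 0.15 over the 18, with the difference between 0.45 and 0.54). For days 1 and 3, 0 of the 38 differences were called in limma, against 0.00855% of clusters called. At an unadjusted p under 0.05 there were 8, and the share of all clusters at that limit was not counted. Alternative fits called other numbers of differences, given below.

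Ebf1, a factor of B cell development, was 5.98 ± 0.12 on day 0, 6.79 ± 0.07 on day 1 and 5.82 ± 0.10 on day 5. The day 1 pulse changed it by -0.41 ± 0.11 (SE, adjusted p = 0.0399), with controls at 6.90, 7.15 and 7.19 and pulse arrays at 6.60, 6.49 and 6.93. These groups overlapped by 1 array, and the call was lost without the wide arrays. Vrtn, a factor known from vertebral number, behaved otherwise: its pulse change was -0.30 ± 0.11 on day 1, -0.24 ± 0.11 on day 3 and 0.32 ± 0.11 (SE, adjusted p = 0.0476) on day 5. The day 5 controls read 7.00, 6.45 and 6.77 and the pulse arrays 6.92, 7.16 and 7.12, which overlapped, and against the 1 control array that is not wide, at the highest of these levels, the value was 0.06 (adjusted p = 0.951).

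In the list of formative and primed epiblast genes, 7 of 25 measured genes were among the 38: Otx2, Krt42, Fgf15, Etv1, Hes6, Fgf5 and Lef1. That list was drawn up with earlier results of these arrays known, so its overlap with the set is no independent evidence. Of the 18 others, 0 were called in limma after the day 1 pulse (4 lower and 1 higher at an unadjusted p under 0.05), with a median of -0.10. On day 3, Wnt8a was lower, and on day 5 Cdh2, an adhesion protein, was higher by 0.32 ± 0.08 (adjusted p = 0.0115). Over all clusters, 3.2% were lower and 0.547% higher on day 1, 0.0342% lower on day 3 and 5.13% higher on day 5. In the controls, 14 of the 18 fell from day 1 to day 5 and 0 rose (also 0 at an unadjusted p under 0.05), against 15.8% and 16.4% of all clusters, led by Tcf15 at -1.43 ± 0.08 (adjusted p = 1.36e-13), Dnmt3a at -1.37 ± 0.09 (adjusted p = 1.52e-12), Zic5 at -1.28 ± 0.13 (adjusted p = 1.73e-08) and Dnmt3b at -1.10 ± 0.10 (adjusted p = 3.29e-09). Their median was -0.29, beside -0.06 over all clusters. With the wide arrays left out, 8 of the 18 fell and 0 rose, 1 was lower on day 1, and Wnt8a and Cdh2 were not called in limma.

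Krt42, a type I keratin, had the smallest rise of the set and a steep fall. It read 9.41, 9.57 and 9.40 on day 0, 10.09, 9.99 and 10.12 on day 1, 8.70, 8.76 and 8.77 on day 3 and 8.10, 8.10 and 7.92 on day 5. In the day 1 controls it was back at 9.46, 9.26 and 9.73, and pulse arrays were 9.67, 9.58 and 9.82. Its pulse changes were 0.21 ± 0.09, -0.05 ± 0.09 and 0.18 ± 0.09, none called. Without the wide arrays the day 1 change was 0.33 and was called. Controls changed from day 1 to day 5 by -1.70 ± 0.09 (SE, adjusted p = 7.48e-14). Krt42 also stood in the trophectoderm list, where 15 of the 17 other measured genes rose over the same step and 0 fell (also 0 at an unadjusted p under 0.05), against 16.4% and 15.8% of all clusters and with 12 rising without the wide arrays, with Krt7 at 2.76 ± 0.06 and Krt18 at 2.66 ± 0.07.

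Among receptors and the remaining ligands, Lpar4, a receptor for lysophosphatidic acid, and Apela, a secreted peptide ligand of the apelin receptor, were each called lower after pulses of 2 days. Lpar4 read 8.36, 8.27 and 8.29 on day 0, 9.47, 9.56 and 9.44 on day 1, 9.28, 9.00 and 8.71 on day 3 and 7.91, 7.90 and 8.0 on day 5. Its controls were 9.62, 9.49 and 9.75, 9.02, 9.24 and 9.05 and 7.79, 7.91 and 8.08, against 9.10, 8.92 and 9.25, 8.26, 8.63 and 8.45 and 8.0, 7.73 and 7.65 after pulses on days 1, 3 and 5. The groups were apart on days 1 and 3 and overlapped on day 5. Changes were -0.53 ± 0.12 (SE, adjusted p = 0.0108), -0.66 ± 0.12 (SE, adjusted p = 0.0281) and -0.13 ± 0.12 (adjusted p = 0.433). The day 3 call did not hold without the wide arrays, at -0.59 (adjusted p = 0.203). Pulse arrays of day 1 stayed above all day 0 arrays, while those of day 3 ranged from just below them to above.

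Apela was 8.75, 8.71 and 8.82 on day 0, 9.74, 9.91 and 9.83 on day 1, 9.92, 9.68 and 9.59 on day 3 and 8.86, 8.92 and 8.92 on day 5. Control arrays read 10.08, 10.43 and 10.20, 9.38, 9.72 and 9.45 and 8.93, 9.19 and 9.10, and pulse arrays 9.25, 9.13 and 9.45, 9.11, 9.22 and 9.30 and 8.45, 7.93 and 7.96, on days 1, 3 and 5. Every pulse array lay below every control array of its day. The change was -0.96 ± 0.12 (SE, adjusted p = 4.41e-05) on day 1, -0.31 ± 0.12 (adjusted p = 0.245) on day 3 and -0.96 ± 0.12 (SE, adjusted p = 2.81e-05) on day 5. On day 5, all 3 pulse arrays were also below all day 0 arrays.

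Pdgfc, a ligand of PDGF receptors, was 8.39 ± 0.12 on day 0, 9.33 ± 0.12 on day 1 and 8.38 ± 0.11 on day 3. The day 1 controls read 8.95, 8.95 and 9.07 and the pulse arrays 8.46, 8.56 and 8.72, which were apart. Its changes were -0.41 ± 0.08 (SE, adjusted p = 0.00502) on day 1, -0.32 ± 0.08 (adjusted p = 0.139) on day 3 and 0.12 ± 0.08 (adjusted p = 0.298) on day 5. Tek, the angiopoietin receptor of endothelial cells, peaked on day 3 at 8.59 ± 0.10 from 7.92 ± 0.08 on day 0. The controls of day 3 were lower than those of day 1, with a change of -0.33 ± 0.10 (SE, adjusted p = 0.025), although Tek was highest on day 3 in the withdrawal groups. After the day 5 pulse it was lower, with a change of -0.53 ± 0.10 (SE, adjusted p = 0.00142), with 7.16, 7.14 and 7.03 against 7.52, 7.83 and 7.56. Against the control at 7.52, the 1 that is not wide, the change was -0.41. Dpp4, a cell surface peptidase, changed by -0.17 ± 0.09, -0.45 ± 0.09 and -0.09 ± 0.09 with the pulses, none called. Its day 3 pulse arrays of 7.01, 6.91 and 6.88 lay apart from the controls at 7.37, 7.45 and 7.35.

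The microRNA genes are taken by genomic cluster. Mir106a read 5.38, 5.65 and 4.97 on day 0, 6.16, 6.18 and 6.25 on day 1, 7.42, 7.65 and 7.07 on day 3 and 6.71, 6.61 and 6.69 on day 5. Controls were 7.20, 6.99 and 7.38, 7.22, 7.61 and 7.16 and 6.13, 6.72 and 6.41 on days 1, 3 and 5, and pulse arrays 5.90, 6.05 and 6.33, 6.40, 6.65 and 6.47 and 6.47, 6.35 and 6.20. Pulse and control arrays were apart on days 1 and 3. The day 1 change of -1.10 ± 0.16 (SE, adjusted p = 0.000217) was the largest of the 38, the day 3 change was -0.82 ± 0.16 (adjusted p = 0.0551) and the day 5 change -0.08 ± 0.16. Mir363, from the same cluster, changed by -0.68 ± 0.24, -0.79 ± 0.24 and -0.37 ± 0.24, none called (adjusted p = 0.122, 0.173 and 0.277). Its day 1 controls spread from 6.52 to 7.91, the highest being a wide array.

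Mir302d, from the chromosome 3 cluster, had a day 1 change of the opposite sign, and this contrast with Mir106a was not tested. It was 5.34, 5.66 and 5.54 on day 0 and 5.23, 5.35 and 5.25 on day 1, then 7.23, 6.68 and 6.31 on day 3 and 5.98, 5.71 and 5.90 on day 5. The day 1 controls, at 6.12, 6.35 and 6.33, lay below the day 1 pulse arrays at 6.59, 6.51 and 6.66, the 1 case of the 38 in which day 1 pulse arrays were all higher, and the change of 0.32 ± 0.16 was not called (adjusted p = 0.327). On days 3 and 5 the changes were -0.24 ± 0.16 and 0.18 ± 0.16. Controls rose from day 1 to day 3 by 0.78 ± 0.16 (SE, adjusted p = 0.00161) and changed from day 3 to day 5 by -1.58 ± 0.16 (SE, adjusted p = 7.05e-08). Mir377, from chromosome 12, changed by -0.36 ± 0.22, -0.81 ± 0.22 and -0.21 ± 0.22, none called, with day 3 pulse arrays at 5.94, 5.89 and 5.71 below the controls at 6.68, 6.95 and 6.34.

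The neighbours of these genes, looked up after the values above were seen, are given without a test. In the chromosome X cluster, the day 1 pulse changes were -0.67 for Mir20b, -0.70 for Mir19b-2 and -0.22 for Mir92-2, and the day 3 changes -0.46, -0.42 and -0.14. In the chromosome 3 cluster, the day 1 changes were 0.58 for Mir302a, 0.25 for Mir302b, 0.31 for Mir302c and 0.10 for Mir367, and the day 3 changes -0.33, -0.40, -0.26 and -0.26. Both clusters had higher means on day 3 of withdrawal than on day 0. The difference was 0.56 to 1.27 for these 3 neighbours on chromosome X and 0.84 to 1.55 for the 4 on chromosome 3. On day 1 these neighbours stood at 0.24 to 0.79 and at -0.59 to -0.06 from day 0. Signals on chromosome 3 were low and spread widely on day 3. Mir367 read 3.18 to 5.01 on day 3 and 3.19 to 3.37 on day 0. Mir302b read 4.727 to 6.597 and 4.601 to 4.734. Both overlapped, while the Mir302a and Mir302c arrays of these days were apart. Cluster members share transcripts and related sequences, so they are not separate measurements of a response.

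Irf1, an interferon regulatory factor, rose from 8.60, 8.71 and 8.56 on day 0 to 9.55, 9.60 and 9.66 on day 1 and 10.00, 9.83 and 9.85 on day 3, and was 9.17, 9.13 and 9.10 on day 5. Day 1 controls read 9.94, 9.87 and 9.92 and pulse arrays 9.24, 9.15 and 9.40, which were apart, with a change of -0.64 ± 0.09 (SE, adjusted p = 8.94e-05). The day 3 and day 5 changes were -0.32 ± 0.09 (adjusted p = 0.148) and -0.24 ± 0.09 (adjusted p = 0.0642). A further probe cluster for Irf1, at a mean of 7.09, rose by 0.11 and did not show this course. Ddx60, a helicase linked to antiviral responses, was still rising in the controls from day 1 to day 3 (0.98 ± 0.14 (SE, adjusted p = 2.44e-05)) and changed by -0.63 ± 0.14 (SE, adjusted p = 0.00203) from day 3 to day 5. Among the 21 other interferon-linked genes, 0 were higher in limma (1 at an unadjusted p under 0.05) and 2 lower after the day 1 pulse, and 11 rose and 1 fell from day 1 to day 5 in the controls (9 and 0 without the wide arrays, 16.4% and 15.8% over all clusters), with Usp18, which restrains the response, at 1.66 ± 0.12. Irf1 fell over that step, with a change of -0.75 ± 0.09 (adjusted p = 1.25e-07). After the day 1 pulse, 0.547% of all clusters were higher and 3.2% lower.

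Tdrd12, a Tudor domain protein of the piRNA pathway, was called after the day 5 pulse alone. Against the 1 day 5 control array that is not wide, its day 5 change was -0.57. It read 9.76, 9.99 and 9.67 on day 0, 10.46, 10.68 and 10.57 on day 1, 11.11, 11.31 and 11.00 on day 3 and 10.55, 10.47 and 10.50 on day 5. Its pulse changes were -0.27 ± 0.11 and -0.20 ± 0.11 on days 1 and 3, neither called, and -0.78 ± 0.11 (SE, adjusted p = 0.000147) on day 5, with controls at 9.82, 10.20 and 10.06 and pulse arrays at 9.50, 9.06 and 9.17. Of the 17 other germline and 2-cell-like genes, 0 were called in limma after the pulses of days 1 and 3 (3 on each day at an unadjusted p under 0.05). On day 5, 3 of the 17 were lower, against 7.1% of all clusters, with Meiob at -1.76 ± 0.24 (adjusted p = 6.65e-05) and Dppa3 at -0.76 ± 0.14 (adjusted p = 0.00201). In the controls from day 1 to day 5, 9 of these rose and 2 fell, against 16.4% and 15.8% of all clusters. Without the wide arrays 6 rose and 2 fell, and 0 were called after the day 5 pulse in limma.

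Epp13, named for an epididymal protein, kept its pulse response at both ends of the series. It was 8.64 ± 0.04 on day 0, 9.42 ± 0.10 on day 1, 9.29 ± 0.03 on day 3 and 8.69 ± 0.17 on day 5. Controls read 9.47, 9.33 and 9.57 and 8.72, 8.69 and 8.89 on days 1 and 5, against 8.93, 8.94 and 8.87 and 8.0, 7.87 and 7.86 after the pulse, with no overlap. Changes were -0.54 ± 0.09 (SE, adjusted p = 0.0014), -0.25 ± 0.09 (adjusted p = 0.24) and -0.86 ± 0.09 (SE, adjusted p = 8.34e-06). Gm5662, a predicted gene, changed by -0.65 ± 0.17 (SE, adjusted p = 0.0303) on day 1, from 8.18, 8.30 and 8.88 to 7.86, 7.50 and 8.06, and this call was lost without the wide arrays, at -0.43 (adjusted p = 0.108). Pipox, a peroxisomal oxidase, changed by -0.39 ± 0.11 (SE, adjusted p = 0.0386) on day 1 and -0.52 ± 0.11 (SE, adjusted p = 0.00409) on day 5. Its day 1 arrays were apart, at 9.45, 9.50 and 9.96 and 9.32, 9.14 and 9.27, as were those of day 5, at 8.88, 9.02 and 9.05 and 8.66, 8.39 and 8.34, but without the wide arrays the changes were -0.23 (adjusted p = 0.167) and -0.42 (adjusted p = 0.178).

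For Car3, Akr1c18, Slc23a1, Has2 and Ppp4r4, no pulse change was called on any day. Car3, a carbonic anhydrase, was 7.40, 7.50 and 7.35 on day 0 and 8.54, 8.43 and 8.55 on day 1, with day 1 controls at 8.26, 8.41 and 8.74 and pulse arrays at 8.48, 8.42 and 8.66, which overlapped. Its pulse changes were 0.05 ± 0.10, -0.18 ± 0.10 and -0.06 ± 0.10, none called. Akr1c18, a hydroxysteroid dehydrogenase that inactivates progesterone, was 5.56 ± 0.18 on day 0 and 7.08 ± 0.42 on day 3, with changes of -0.37 ± 0.19, -0.42 ± 0.19 and 0.10 ± 0.19. Slc23a1, a vitamin C transporter, was lower in all 3 pulse arrays than in the controls on days 1 and 3, with changes of -0.22 ± 0.08 and -0.23 ± 0.08, and neither was called. Has2, a hyaluronan synthase, was likewise apart on both days, at -0.35 ± 0.11 (adjusted p = 0.0617) and -0.43 ± 0.11 (adjusted p = 0.122). Ppp4r4, a regulatory subunit of protein phosphatase 4, gave -0.19 ± 0.18, -0.30 ± 0.18 and -0.47 ± 0.18.

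The cytoskeletal and remaining genes were called after the day 5 pulse or after none. Map7d3, a microtubule-binding protein, was 7.66 ± 0.17 on day 0, 8.63 ± 0.12 on day 1 and 6.95 ± 0.15 on day 5, and after the day 5 pulse it was at 6.85, 6.36 and 6.33 against 6.76, 7.31 and 7.21 in the controls (-0.58 ± 0.16 (SE, adjusted p = 0.0196)). Pulse and control arrays overlapped there. Against the control at 6.76, the 1 that is not wide, the change was -0.25. With the interquartile range as a covariate it was -0.17 (adjusted p = 0.291) and was not called. H2ac1, a histone with near-identical relatives and so of uncertain value, changed by -0.41 ± 0.08 (SE, adjusted p = 0.0024) on day 5. Dusp27, a pseudophosphatase of muscle, changed by -0.43 ± 0.08 (SE, adjusted p = 0.00133). Against the 1 day 5 control array that is not wide, these changes were -0.32 and -0.39. Elmo1, an activator of Rac, gave -0.21 ± 0.11, -0.06 ± 0.11 and -0.18 ± 0.11, and Coch, a matrix protein of the inner ear, gave -0.09 ± 0.09, -0.08 ± 0.09 and -0.10 ± 0.09. Trim67 and Kctd12b, of the tripartite motif and KCTD families, had day 3 changes of -0.12 ± 0.13 and -0.33 ± 0.14, with the arrays apart for both. No pulse change of Elmo1, Coch, Trim67 or Kctd12b was called.

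The fall to day 5 was then examined in the control and pulse arrays, from which the rule took no rise or fall. In the controls, all 21 day 1 genes were lower on day 5 than on day 1, where 15.8% of all clusters were lower and 16.4% higher. Of the 17 day 3 genes, 16 were lower on day 5 than on day 3, against 7.42% lower and 8.98% higher. The exception was Mir377, at -0.06 ± 0.22 (adjusted p = 0.895), with day 5 controls of 6.13, 7.09 and 6.58 spanning those of day 3. Lefty1, Fgf15, Krt42 and Lpar4 fell most among day 1 genes, the last with a change of -1.69 ± 0.12 (SE, adjusted p = 1.79e-11), and Mir302d and Akr1c18 most among day 3 genes, the second with a change of -1.53 ± 0.19 (SE, adjusted p = 1.57e-06). Map7d3 changed by -1.48 ± 0.16 and Car3 by -1.35 ± 0.10. Without the wide arrays, 21 of 21 day 1 genes and 13 of 17 day 3 genes were lower against 1 day 5 control array, where 10.5% and 4.11% of all clusters were lower. The controls were withdrawn cells of the same clone as those that chose the genes, so this repeats the fall in other arrays of 1 clone. The rise from day 0 could not be repeated, because day 0 has no other arrays.

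In the pulsed cells, 20 of 21 day 1 genes were lower on day 5 than on day 1, against 13.7% of all clusters lower and 14.5% higher. The exception was Vrtn, at -0.28 ± 0.11 (adjusted p = 0.0515). Of the 17 day 3 genes, 12 were lower on day 5 than on day 3, against 8.53% lower and 8.99% higher. Those not called were Mir106a (-0.17 ± 0.16), Kctd12b (-0.36 ± 0.14), Has2 (-0.13 ± 0.11), Ddx60 (-0.29 ± 0.14) and Mir377 (0.54 ± 0.22). Control and pulse falls share no arrays with each other, but 1 fit gave both the same estimate of the spread per cluster. Each also shares arrays with the pulse comparisons above. In limma, 0 of the 38 genes rose from the peak day to day 5 in either series, and at an unadjusted p under 0.05 Mir377 did in the pulse arrays.

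**Figure D4:**
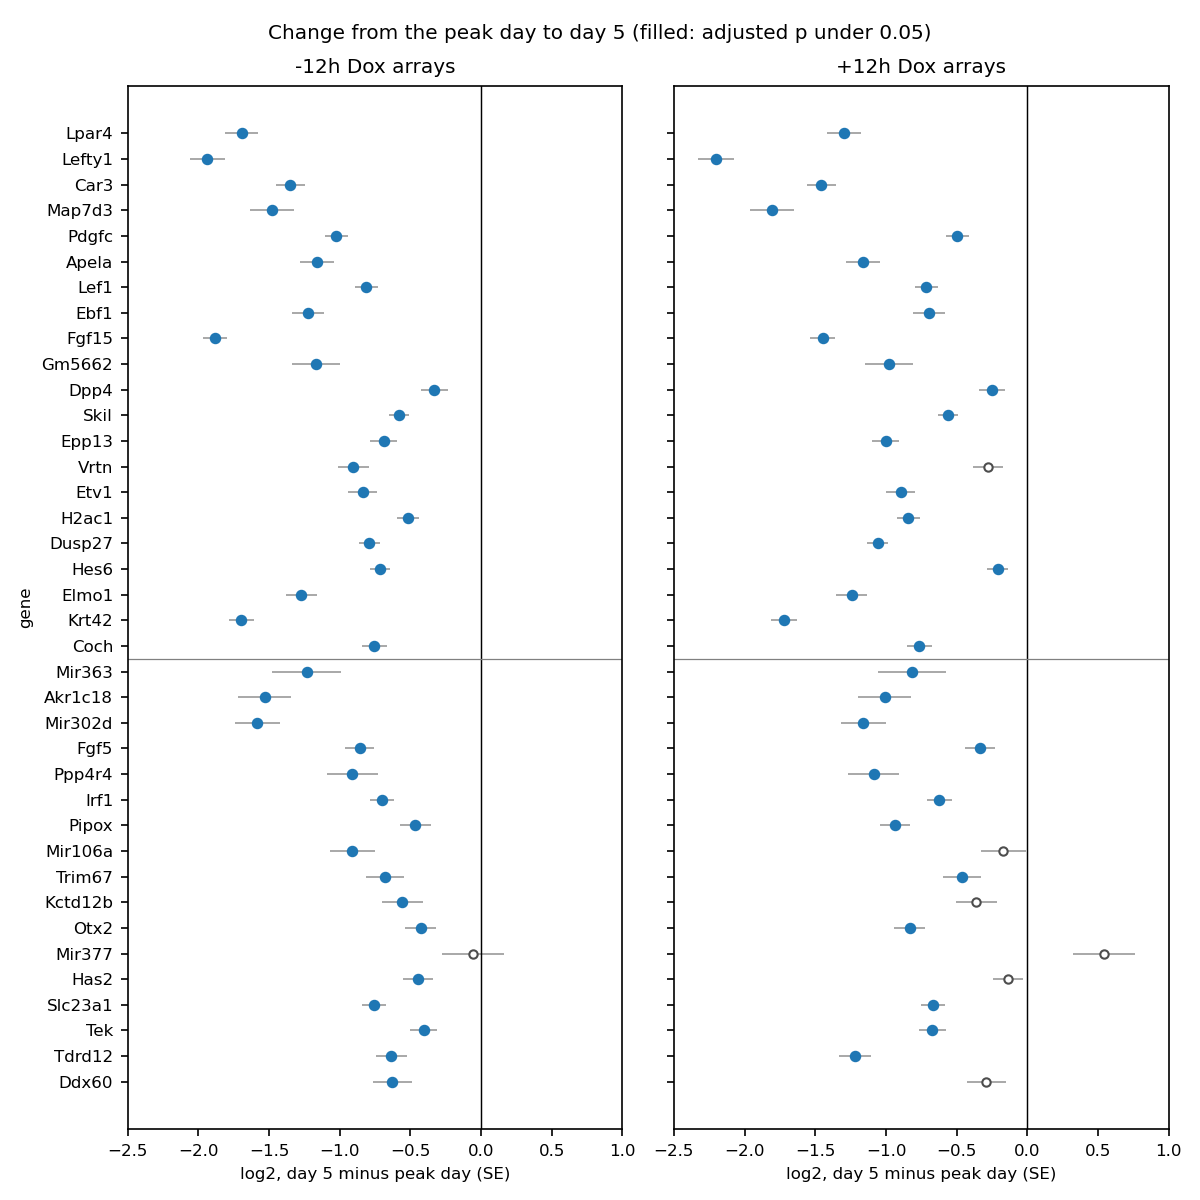
Change in log2 signal from the peak day to day 5 (horizontal axes) of each of the 38 genes (rows) in the control arrays (left) and the pulse arrays (right), with standard errors and called changes filled. Filled points number 37 of 38 on the left and 32 of 38 on the right, and Mir377 lies above 0 on the right.

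The order of the 2 peaks was partly kept in the controls. From day 1 to day 3, 17 of 21 day 1 genes were lower, where 4.42% of all clusters were lower and 5.6% higher, and the 4 not called were Lefty1, Dpp4, Skil and Etv1. Etv1 was the 1 day 1 gene with a higher mean on day 3, by 0.09 ± 0.10. Of the 17 day 3 genes, Mir302d, Ppp4r4 (0.72 ± 0.18 (SE, adjusted p = 0.00952)) and Ddx60 were higher on day 3, Tek was lower, and 13 were not called. Leaving out the wide arrays, 17 of 21 day 1 genes were lower, and of the day 3 genes 4 were higher and 0 lower. In that fit, which kept 2 control arrays on each of these days, 4.49% of all clusters were lower and 5.02% higher. In the main fit the day 3 control mean was above that of day 1 in 12 of the 17 day 3 genes, a share not counted over all clusters. Otx2 controls of these days, for example, differed by 0.24 ± 0.11 (adjusted p = 0.18).

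Promoter sequence was looked up in RefSeq (GRCm38.p6) for the members, and 26 of 38 genes matched, with 41 starts. Those without an entry were Mir377, Mir363, Lefty1, Skil, Car3, Gm5662, Kctd12b, Mir106a, Slc23a1, Mir302d, Has2 and Fgf15. Windows ran from 250 bases before to 50 bases after the start and were searched on both strands, at all positions. The TATA box sequence TATAAA was found in 12 of 41 member starts (29.3%) and in 11.5% of 19175 starts of measured genes. The CCAAT box, CCAAT, was found in 29.3% against 37.4%, the GC box, GGGCGG, in 39.0% against 49.2%, the E-box, CACGTG, in 2.4% against 8.2%, the bicoid-class motif TAATCC in 9.8% against 6.4% and the octamer ATTTGCAT in 4.9% against 1.6%. TGACGTCA and AATCCACA were not found in the member windows and were in 2.4% and 0.8% of all. Starts of 1 gene overlap, so the 41 are not independent. A match is a description of letters, and its position was not weighed, so it need not be a working element.

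The 250 bases before the starts of Lpar4, Apela and Pipox are shown, because each was called lower in 2 of the 3 pulses and has 1 start in the table. Capitals mark matches to the CCAAT box, GC box, TATA box and octamer sequences on either strand. The windows are chrX:106920375-106920624 (plus strand), chr8:65037337-65037586 (minus strand) and chr11:77893873-77894122 (minus strand).
Lpar4: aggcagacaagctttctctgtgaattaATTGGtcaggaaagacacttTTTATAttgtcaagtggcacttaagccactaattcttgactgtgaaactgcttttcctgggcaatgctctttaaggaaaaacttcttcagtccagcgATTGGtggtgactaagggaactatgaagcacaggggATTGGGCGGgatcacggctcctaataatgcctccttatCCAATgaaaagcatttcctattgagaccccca
Apela: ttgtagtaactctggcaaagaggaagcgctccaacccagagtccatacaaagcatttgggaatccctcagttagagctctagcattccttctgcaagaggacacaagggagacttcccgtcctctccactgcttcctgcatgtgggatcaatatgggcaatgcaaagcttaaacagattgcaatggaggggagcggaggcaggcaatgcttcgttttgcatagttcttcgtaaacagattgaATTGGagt
Pipox: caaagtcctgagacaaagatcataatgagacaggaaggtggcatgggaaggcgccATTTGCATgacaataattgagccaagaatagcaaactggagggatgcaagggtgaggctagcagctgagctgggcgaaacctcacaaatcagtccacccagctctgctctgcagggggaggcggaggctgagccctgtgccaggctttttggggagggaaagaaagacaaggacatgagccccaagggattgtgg
Lpar4 held 4 CCAAT boxes, 1 GC box that overlaps a CCAAT box and 1 TATA box, Apela held 1 CCAAT box and Pipox 1 octamer, so that none of the motifs searched was present in all 3 windows.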

How the data were processed

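RNA of 30 samples in 10 groups of 3 had been hybridised to Affymetrix Mouse Gene 1.0 ST arrays. The submitters' processing notes name RMA and Affymetrix Expression Console, with no version. The authors' deposited log2 signals were used unchanged. Of 28815 clusters, 21780 had 1 symbol, 1605 several and 5430 none. A gene with several clusters took the one with the highest mean. The members, gene lists and tests were chosen with earlier results of these data known.

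A limma model (version 3.58.1, R 4.3.3) had 1 mean per group over all 30 arrays and no covariate. P-values were adjusted by Benjamini-Hochberg over 23385 clusters, and an adjusted p under 0.05 was called. Array number limits precision. The fit was tested on simulated data. Every member was named, those with the largest smaller-of-rise-and-fall or largest called changes in detail, with up to 4 called genes of each list per comparison. Replicate numbers did not pair the arrays. Alternatives were array weights, a robust trend, other scaling, low-signal filters, other rule thresholds, a replicate block, and arrays left out.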

Additional observations from a re-analysis of the deposited data

Results flagged for a closer look

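For Hes6, a difference between the day 1 and day 5 pulses was called. Its pulse minus control change was -0.51 on day 1 and -0.01 on day 5, a difference of 0.50 ± 0.10 (SE) with an adjusted p of 0.0428 in limma. Day 1 pulse arrays lay below all day 1 controls in 3 of 3 cases, and on day 5 the groups overlapped. The call was lost in 15 of 18 fits that each left out 1 array, in the 18 control and pulse arrays alone, with median centring, with the replicate block and without the 4 wide arrays. With median centring Hes6 also did not meet the rule that chose the set. What the difference comes from was not tested.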

How the results depend on the processing

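Of 117 called changes of single members, 0 changed sign under any alternative. A robust trend, the 18 control and pulse arrays alone and the replicate block leave the changes as they are, so no sign could differ there. The same holds for the low-signal filter, which kept 98 of the 117, and for including clusters without a symbol. Leaving out 1 array could alter only the changes that use its group. Calls were lost: 13 of the 117 in the 18 arrays alone and 5 with the block. More were lost without the wide arrays, where 1 day 5 control array remained. Counts moved as well. With a robust trend, 3 members were lower after the day 3 pulse, and 3 differences between day 1 and day 5 pulses were called. With array weights, 1 member was higher and 19 lower after the day 1 pulse, 12 lower on day 3 and 3 higher on day 5. Over all clusters, array weights gave 7.14% higher and 12.4% lower on day 1, 4.94% lower on day 3 and 25.5% higher on day 5. With these weights 1 member rose to day 5 in pulse arrays and 5 were higher in controls from day 1 to day 3. For days 5 and 3, 15 and 5 pulse differences from day 1 were called. The 18 control and pulse arrays alone gave 0 calls on day 3, 0 higher on day 5 and 0 differences, and median centring gave 0 on day 3 and 0 differences. Quantile scaling gave 1 higher on day 1, 0 higher on day 5 and 4 differences. Without the 40% of clusters of lowest signal, 2 were lower on day 3, 0 higher in controls from day 1 to day 3 and 3 differences called. Clusters without a symbol, when included, left 0 higher on day 5. The replicate block gave 2 lower on day 3, 0 higher on day 5 and 0 differences between days 1 and 5; same-number correlations of deviations ran from -0.716 to 0.245, and 3 of 9 pulse arrays correlated best with their own number. The interquartile range as a covariate gave 3 lower on day 3, 0 higher on day 5, 1 rise in pulse arrays, 5 and 1 differences, and leaving out the 4 wide arrays gave 1 higher on day 1 (Krt42), 0 lower on day 3, and 0 higher and 2 lower on day 5. Over all clusters, the share lower on day 3 was 0.145% with the robust trend, and 0.363% of those kept without low-signal clusters. It was 0.0385% with the block and 0.077% with the covariate. The share higher on day 1 was 1.32% with quantile scaling and 1.97% without the wide arrays. A rule limit of 0.5 gave 63 members, with 21, 2 and 19 lower and 2 higher (day 5) after pulses, 59 and 52 falls and 2 differences. A limit of 0.8 gave 13 members, 4 and 3 lower on days 1 and 5, 0 higher on day 5, 13 falls in each series, 7 lower in controls from day 1 to day 3, and 0 differences. Leaving out 1 array at a time gave 34 to 46 members, 0 to 1 higher and 6 to 13 lower on day 1, 0 to 0 and 0 to 3 on day 3, 0 to 2 and 9 to 16 on day 5, 36 to 37 control and 28 to 33 pulse falls with 0 to 0 rises, 2 to 5 higher and 14 to 19 lower controls from day 1 to day 3, and 0 to 5 and 0 to 0 differences for days 5 and 3 from day 1. The Hes6 difference was not called in the 18 arrays alone (adjusted p = 0.181), with median centring (0.0703), with the block (0.0621), without the wide arrays, or in 15 of 18 fits that each left out 1 array (0.0206 to 0.15 over the 18), while its size stayed between 0.45 and 0.55. With the minimum mean and the cluster taken from the 12 day 0 and withdrawal arrays, an alternative added after seeing the data, 37 members were left. The causes of these moves were not tested.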
